A study of Mus musculus with 12 samples.

Results

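The CCT chaperonin, also called TRiC, was followed through its 8 subunit genes, Tcp1, Cct2, Cct3, Cct4, Cct5, Cct6a, Cct7 and Cct8, out of 55536 gene IDs in the deposited count tables. The members were the rows whose Ensembl mouse gene ID carries these symbols, and all 8 passed the filter on low counts in every comparison. The samples are mouse embryonic fibroblasts (MEF), connective tissue cells cultured from mouse embryos. HF cells received 100 nM halofuginone for 6 h, and control cells had the same medium without it. Halofuginone is an inhibitor of the prolyl-tRNA synthetase activity of EPRS. Both groups were held in high-glucose DMEM whose serum had been dialyzed, so depletion of small molecules from serum is common to both. Each condition was read as total RNA and as ribosome-protected fragments (RPF, footprints), with 3 libraries in each of the 4 groups. The labels name no genotype and do not say whether the replicates were separate cultures, so the tests weigh differences against a spread that may be technical.

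CCT is a cytosolic folding machine built from a pair of stacked rings, and every ring holds each of the 8 different subunits once. It closes over unfolded proteins in cycles driven by ATP, and actin and tubulin are its best known clients in fibroblasts and other cells. Prefoldin hands clients to it, and phosducin-like proteins assist it. Because the subunits are used in equal number, cells are thought to make them in a balanced way. In yeast, Cct2, Cct4 and Cct5 bind ATP tightly, while Cct3, Cct6 and Cct8 bind it weakly, so that the ring has a strong and a weak side.

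Library totals ran from 1017651 to 1697554 counts in RNA HF, 718096 to 1295434 in RNA control, 562794 to 1958356 in RPF HF and 724609 to 2527791 in RPF control. The subunits were well covered. Their counts per library lay between 318 and 4715, both ends being control libraries. Of 9 fibroblast markers, 8 were detected in each group and Postn was at 0. Their summed level was 9214 to 9538 CPM in RNA HF libraries and 7660 to 8023 in RNA control libraries, and 12259 to 12600 CPM in RPF HF libraries and 15784 to 16748 in RPF control libraries. CPM is the usual depth-scaled count, here with TMM factors (trimmed mean of M-values) within each assay. It is taken over all counts in RNA and over protein-coding counts in footprints, so CPM values of the 2 assays are not on the same base. Summed markers of blood, epithelium and endothelium reached at most 5.81 CPM in any library, with Hbb-bs, Krt8 and Pecam1 at 0 throughout. Of 7 fibroblast markers that could be tested, 1 was higher (Fn1, log2 fold change 1.69) and 4 lower in RNA. The RNA sum and most of the tested markers thus moved in opposite directions. In footprints 2 were higher and 5 lower. Over all genes tested, 22.3% were called higher and 21.4% lower in RNA, and 22.4% higher and 20.8% lower in footprints. Among muscle and nerve markers Sox10 was at 0 throughout and Myod1 in all groups but RPF HF. Their sum, which was nearly all Tubb3, also a client of CCT, was 5.81 to 28.6 CPM in RNA HF and 16.5 to 40.4 in RNA control libraries, and 24.9 to 60.1 CPM in RPF HF and 57.0 to 83.7 in RPF control libraries. The part of these marker shifts in the subunit values was not tested.

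The members are spread over 8 chromosomes, and what their promoters have in common can be read from the RefSeq promoter table (build GRCm38.p6), which held 7 of them and not Cct4. Of the 5 motifs searched on both strands, from 250 bases before to 50 bases after the start, GGGCGG, the core of the GC box bound by factors such as SP1, was in 7 of 7 promoters, against 35.7% of all 32851 promoters in that table. Pairs of inverted heat shock element units gave 0 of 7 for GAANNTTC (7.86% of all promoters) and 2 of 7, Cct5 and Cct6a, for TTCNNGAA (8.52%). These patterns can overlap each other where repeats lie in a row. The E-box CACGTG (7.15%) and the ATF4-type motif TGATGNAA (3.97%) were each in 0 of 7. A match describes letters in this window and is not a shown binding site. The shares are over all entries of that table and were not matched to genes expressed like the members. They therefore do not show that a motif is particular to CCT genes. For each member only the entry with the start farthest upstream was read. The stretch of 30 bases around the GC box nearest to each start on its upstream side is given below, 5′ to 3′ on the gene's strand, with the box in capitals. CCGCCC is the box read on the opposite strand.
Tcp1, chr17:12916211-12916240, + strand: cgttgaggcggaGGGCGGgacacgctagcc
Cct2, chr10:117063880-117063909, - strand: ccaactgaggtcCCGCCCcttctccagcga
Cct3, chr3:88297029-88297058, + strand: ttcttgcgtagaGGGCGGggctaatactgt
Cct5, chr15:31602067-31602096, - strand: cttagagcccGGGCGGcaatcaaagaaaag
Cct6a, chr5:129787294-129787323, + strand: aagccaatcagcGGGCGGcaggagggtcgc
Cct7, chr6:85451475-85451504, + strand: gcgcctcccggaacctgcggtGGGCGGctc
Cct8, chr16:87495900-87495929, - strand: tgcaggttgaagGGGCGGggcgaccggaag
With the start itself as 0, the first base of the box lies at -9 in Cct7, -45 in Cct2, -48 in Cct8, -50 in Cct6a, -94 in Cct3, -106 in Tcp1 and -240 in Cct5. Cct2 is the member with 4 such boxes upstream of its start, Cct6a and Cct7 have 2, and the other members shown have 1. The genes that carry it differed in how their RNA and footprints moved.

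The RNA comparison asks whether subunit transcripts differ after 6 h of halofuginone. Subunit RNA stayed close to control levels as a whole, and only single subunits passed the test. Cct4 rose and Cct3 fell, and the other 6 did not pass. That is 1 of 8 higher, where 22.3% of all 9145 genes tested were called higher, and 1 of 8 lower, where 21.4% were. In either direction it is 2 of 8, where 43.7% of genes were called. The members' median log2 fold change was 0.016, against -0.017 over all genes, and the 8 summed to 4992 ± 79.1 CPM in HF and 4987 ± 52.6 CPM in control cells (SD, n = 3 each). In bulk libraries such as these, less RNA per cell and fewer cells that express a gene cannot be told apart.

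Cct4, the delta subunit (ENSMUSG00000007739, chromosome 11 from 22990593 to 23003336), had 580, 632 and 632 CPM in the RNA HF libraries, against 463, 441 and 476 CPM in the RNA control libraries. Every HF library lay above every control library, and the fitted fold was 1.33 (95% interval 1.17 to 1.53; edgeR quasi-likelihood adjusted p = 0.00032). Cct3, the gamma subunit (ENSMUSG00000001416, chromosome 3 from 88297135 to 88321766), had 423, 417 and 423 CPM in RNA HF libraries, against 547, 562 and 522 CPM in RNA control libraries. All HF libraries were below all control libraries, at a fitted fold of 0.775 (interval 0.677 to 0.889; edgeR adjusted p = 0.0017).

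Cct8, the theta subunit, had 464, 490 and 524 CPM in RNA HF libraries and 447, 447 and 448 CPM in RNA control libraries. These groups do not overlap, yet the gene did not pass (fold 1.10, interval 0.961 to 1.27; edgeR adjusted p = 0.26). Together with Cct4 it makes 2 of 8 members with HF above control in every library, where 25.9% of all genes had this, while Cct3 is 1 of 8 with HF below control throughout, where 25.4% of all genes had this. Tcp1, the alpha subunit named after the mouse t complex, had 655, 731 and 688 CPM in RNA HF libraries and 779, 713 and 864 CPM in RNA control libraries. The 2 groups overlap, the fold was 0.879 (interval 0.773 to 0.999; edgeR adjusted p = 0.097), and the call turned to lower without RNA control 2 (log2 fold change -0.25, edgeR adjusted p = 0.038, against 0.038 to 0.41 over the 6 left-out libraries), with upper-quartile factors (-0.24, adjusted p = 0.029) or with protein-coding genes alone (-0.19, adjusted p = 0.043).

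The remaining 4 subunits had overlapping groups in RNA. Cct2, the beta subunit, averaged 746 ± 36.5 CPM in HF and 809 ± 72.2 CPM in control cells (SD, n = 3 each; interval of the fold 0.811 to 1.05). Cct5, the epsilon subunit, averaged 646 ± 37.0 CPM in HF and 657 ± 39.0 CPM in control cells (interval 0.863 to 1.12). Cct6a, the zeta subunit, averaged 735 ± 48.2 CPM in HF and 665 ± 25.5 CPM in control cells (interval 0.972 to 1.26). The fourth, Cct7, the eta subunit, averaged 645 ± 24.7 CPM in HF and 620 ± 33.2 CPM in control cells (interval 0.914 to 1.18). Changes within these intervals could not be told from none. Levels are not ranked between subunits, since their coding lengths were not used here.

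**Figure D1:**
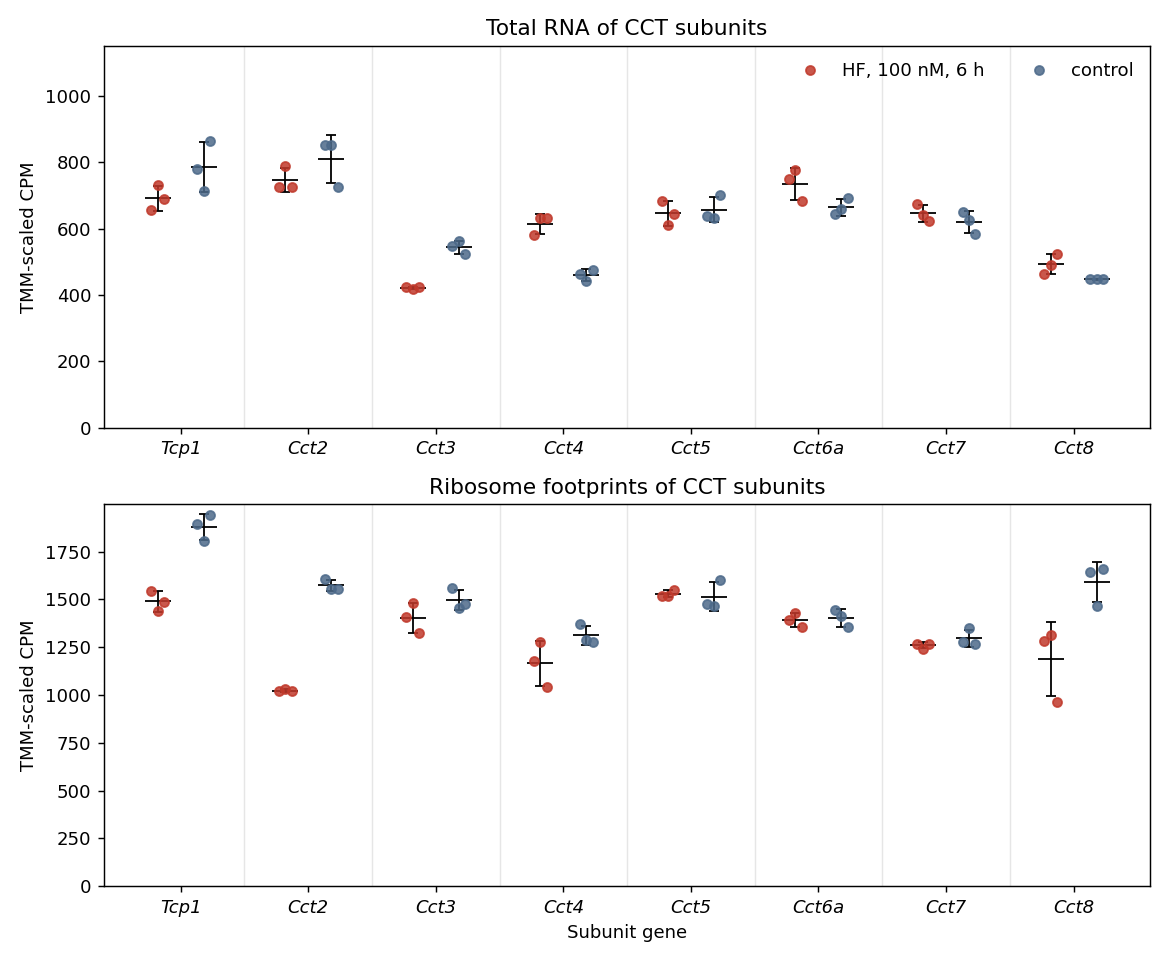
Level of each CCT subunit in every library, as TMM-scaled CPM on the vertical axis, for total RNA (top) and footprints (bottom), with HF cells left of control cells. Points are libraries and bars are the mean ± SD of 3. CPM is taken over all counts in RNA and over protein-coding counts in footprints. In RNA Cct4 is higher and Cct3 lower in HF cells, and in footprints Cct2, Tcp1 and Cct8 are lower in HF cells.

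Footprint counts reflect both the level of an mRNA and how densely ribosomes sit on it, relative to other genes. Here Tcp1, Cct2 and Cct8 fell, 0 members rose, and 5 did not pass. That is 3 of 8 lower, where 20.8% of 8375 protein-coding genes were called lower, and 0 of 8 higher, where 22.4% were called higher. Over both directions 43.3% of genes were called. The 0 also held in DESeq2, and 0 members had a higher value at an unadjusted p under 0.05 in edgeR. The members' median log2 fold change was -0.13, against -0.018 over all genes tested.

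Cct2 (ENSMUSG00000034024, chromosome 10 from 117050997 to 117063852) had the lowest fold of the 8. It had 1019, 1031 and 1020 CPM in RPF HF libraries, against 1609, 1555 and 1557 CPM in RPF control libraries. The gap between the groups is far wider than the spread within either, with a fold of 0.650 (interval 0.581 to 0.727; edgeR adjusted p = 1.3e-07). Tcp1 (ENSMUSG00000068039, chromosome 17 from 12916329 to 12925067) had 1543, 1437 and 1488 CPM in RPF HF libraries, against 1893, 1803 and 1940 CPM in RPF control libraries. Its groups do not overlap either, at a fold of 0.794 (interval 0.714 to 0.884; edgeR adjusted p = 0.00060).

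Cct8 (ENSMUSG00000025613, chromosome 16 from 87483325 to 87495869) had 1281, 1316 and 964 CPM in RPF HF libraries, against 1644, 1468 and 1658 CPM in RPF control libraries. HF was lower throughout, at a fold of 0.750 (interval 0.657 to 0.856; edgeR adjusted p = 0.00055). The low value belongs to RPF HF 3, the shallowest of the 12 libraries, and without it the log2 fold change was -0.29 (edgeR adjusted p = 0.0057, against 0.00026 to 0.0062 over the 6 left-out libraries), beside -0.42 with it. Cct4 had 1181, 1277 and 1043 CPM in RPF HF libraries, against 1371, 1288 and 1277 CPM in RPF control libraries. All its HF values lay below the control values, the nearest pair by less than 1 CPM, and it did not pass (fold 0.889, interval 0.788 to 1.00; edgeR adjusted p = 0.11). It was called lower without RPF HF 2 (log2 fold change -0.24, edgeR adjusted p = 0.043, against 0.043 to 0.35 over the 6 left-out libraries) and with upper-quartile factors (-0.25, adjusted p = 0.016). With Cct4, HF lay below control in every library for 4 of 8 members, where 26.1% of genes tested had this, and above it for 0 of 8, where 25.2% had this.

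The subunits with overlapping footprint groups were Cct3, Cct5, Cct6a and Cct7. Cct3 averaged 1404 ± 77.9 CPM in HF and 1498 ± 53.5 CPM in control cells (SD, n = 3 each; fold 0.937, interval 0.838 to 1.05), so that its lower RNA stood beside a footprint level that did not pass. Cct5 averaged 1531 ± 18.4 CPM in HF and 1515 ± 76.0 CPM in control cells (interval 0.907 to 1.13). Cct6a averaged 1393 ± 36.2 CPM in HF and 1404 ± 46.6 CPM in control cells (interval 0.888 to 1.11). Cct7 averaged 1260 ± 15.6 CPM in HF and 1298 ± 44.2 CPM in control cells (interval 0.867 to 1.09). For Cct5, Cct6a and Cct7, the intervals of RNA and of footprints all included no change, and the lowest bound among them was a fold of 0.863.

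Over the complex, the 8 genes took 0.976% ± 0.0313 of all footprint counts in HF cells and 1.20% ± 0.0184 in control cells (SD, n = 3 each), and 0.502% ± 0.0135 of RNA counts in HF and 0.496% ± 0.00720 in control cells. Taken over protein-coding counts alone, the RNA share was 0.620% ± 0.00929 in HF and 0.657% ± 0.00666 in control cells, so its direction depends on the denominator. Gm42418, a noncoding gene known to collect ribosomal RNA reads, moved with the condition, at 8.31% ± 1.08 of RNA counts in HF and 12.7% ± 0.952 in control cells. The summed footprint level was 10455 ± 384 CPM in HF and 12069 ± 247 CPM in control cells, a ratio of 0.866, while the ratio of the shares of all counts was 0.816. The first is taken over protein-coding counts and scaled by TMM factors. These ran from 0.946 to 0.984 in RPF HF and were 1.03 in each RPF control library. No test is given for these sums.

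**Figure D2:**
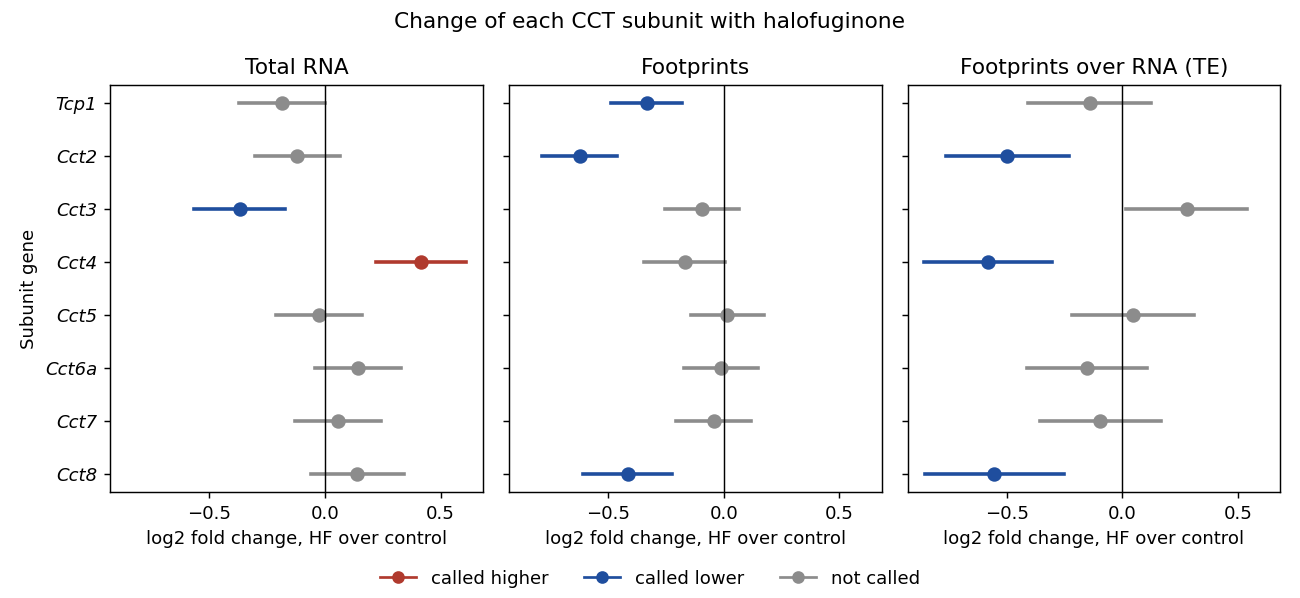
Log2 fold change of HF over control cells for each subunit (horizontal axis) in total RNA, in footprints and in footprints over RNA (TE), with the 95% interval of the edgeR fit as a line. Red and blue mark genes called higher and lower at an adjusted p of 0.05. Blue points are Cct3 in RNA, Tcp1, Cct2 and Cct8 in footprints, and Cct2, Cct4 and Cct8 in TE, and the red point is Cct4 in RNA.

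Translational efficiency (TE) is the footprint level relative to RNA, and its change was fitted over all 12 libraries as the difference between the footprint and RNA responses. It fell for Cct2, Cct4 and Cct8 and rose for 0 subunits. That is 3 of 8 lower, where 7.55% of 8279 genes were called lower, and 0 of 8 higher, where 5.80% were. In either direction 13.3% of genes were called. The 8279 genes include ones with far fewer counts than the members, in which a moderate change is harder to call. The members were also chosen with earlier results of these data known. Cct4 fell by 0.58 on the log2 scale (SE 0.14, edgeR adjusted p = 0.0032), Cct8 by 0.55 (SE 0.15, adjusted p = 0.0099) and Cct2 by 0.50 (SE 0.13, adjusted p = 0.0087). All 3 calls held without any single library and in DESeq2.

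These 3 TE changes were made up differently. Cct2 had log2 fold changes of -0.12 in RNA and -0.62 in footprints, so its footprints fell at an RNA level that did not pass the test. Cct4 had 0.42 in RNA and -0.17 in footprints, so its RNA rose while its footprints did not. Cct8 lay in between, with 0.14 in RNA and -0.42 in footprints. Cct3 had -0.37 in RNA and -0.09 in footprints, and its TE change of 0.28 (interval 0.02 to 0.54) did not pass (edgeR adjusted p = 0.16). At an unadjusted p under 0.05 it is 1 member with higher TE, and DESeq2 called 0. Tcp1 had a TE change of -0.14 (interval -0.41 to 0.12; edgeR adjusted p = 0.54), since its RNA of -0.19 and its footprints of -0.33 had the same sign. Changes of Cct5 (0.05), Cct6a (-0.15) and Cct7 (-0.10) did not pass. Of the subunits with tight ATP binding in yeast, Cct2 and Cct4 were called and Cct5 was not, and of those with weak binding Cct8 was called and Cct3 and Cct6a were not.

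In both conditions every subunit had more footprints for its RNA than the median gene, though Cct2 in HF cells only moderately so. In HF cells their log2 ratio of footprints to RNA ranged from 0.40 for Cct2, at percentile 61.9 of the 8279 genes, to 1.68 for Cct3, at percentile 95.8. In control cells it ranged from 0.90 for Cct2, at percentile 79.8, to 1.77 for Cct8, at percentile 95.6. The median of all genes was 0.08 in HF and 0.06 in control cells. These 8279 genes were not limited to protein-coding ones, which bears on the percentiles. The ratio needs no gene length, but its height depends on the scaling of each assay, and RNA reads may cover untranslated parts that footprints do not.

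The order of the subunits by this ratio differed between conditions. In HF cells it ran Cct3 (1.68), Cct8 (1.22), Cct5 (1.19), Tcp1 (1.05), Cct7 (0.91), Cct4 (0.87), Cct6a (0.87) and Cct2 (0.40). The 95% intervals of neighbours overlapped except at both ends, where Cct3 (1.49 to 1.87) stood above Cct8 (1.00 to 1.43) and Cct2 (0.21 to 0.59) below Cct6a (0.69 to 1.05). In control cells the order was Cct8 (1.77), Cct4 (1.45), Cct3 (1.40), Tcp1 (1.20), Cct5 (1.14), Cct6a (1.02), Cct7 (1.01) and Cct2 (0.90), and the intervals of all neighbours overlapped. Cct2 was last in both orders.

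**Figure D3:**
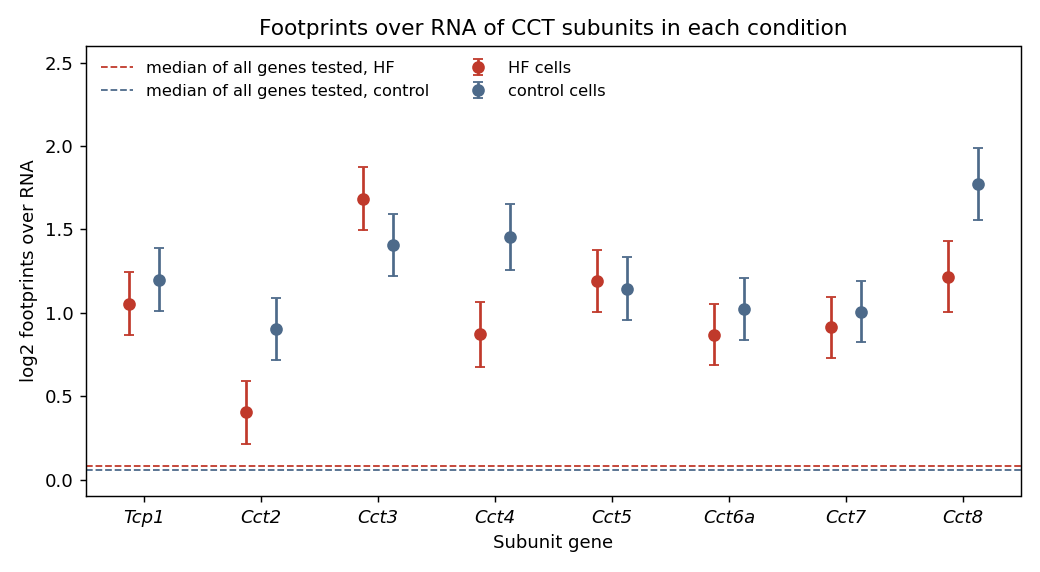
Log2 ratio of footprints to RNA for each subunit in HF cells (red, left) and control cells (blue, right), with 95% intervals of the 12-library fit. Dashed lines are the medians of all 8279 genes, 0.08 in HF and 0.06 in control cells. All subunits lie above them in both conditions, and Cct2, Cct4 and Cct8 are lower in HF cells.

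The balance within the complex can be read from the share of each gene in the summed counts of the 8, in which a common scaling factor cancels. A share also moves when another member moves, since the shares add up to the whole. Cct4 made up 11.7%, 12.4% and 12.8% of the RNA counts in HF libraries, against 9.23%, 8.96% and 9.49% in control libraries, and Cct3 8.54%, 8.21% and 8.56% in HF libraries, against 10.9%, 11.4% and 10.4% in control libraries. Both pairs of groups are far apart, in opposite directions. Among footprints the Cct2 share was 9.60%, 9.61% and 10.2% in HF libraries, against 13.1%, 13.2% and 12.8% in control libraries. The Cct5 share of footprints was 14.7% ± 0.726 in HF and 12.6% ± 0.599 in control cells (SD, n = 3 each), although its own level did not pass the test. This was not particular to Cct5. The footprint share of 4 members, Cct3, Cct5, Cct6a and Cct7, was higher in every HF library than in every control library, and that of 3 members was lower. For Cct4 the footprint share overlapped, at 11.1% ± 0.742 in HF and 10.9% ± 0.323 in control cells (SD, n = 3 each), in spite of its larger RNA share. These shares are a description, with no test.

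Likeness between the subunits was read across the 12 libraries, with each gene centred within its assay. Pearson's r of each with the mean of the other 7 was 0.84 for Cct8, 0.76 for Cct2 and 0.63 for Tcp1, the members whose footprints fell, and lay between -0.23 (Cct5) and 0.24 (Cct4) for the rest. The points share 2 conditions and 12 libraries, so r mostly reads the contrast of HF and control. High r in Cct8, Cct2 and Tcp1 thus largely restates their footprint calls. In members with fold changes near 0, such as Cct5, Cct6a and Cct7, r mostly reads the spread of replicates. A low r there cannot show whether a subunit follows the others. Among 4425 other genes counted well in both assays, the highest r with the mean of the 8 was that of Snrnp200, which encodes an RNA helicase of the spliceosome (0.98). Other genes high in this order were Washc5 (0.97), Fem1b (0.96) and Pkd1 (0.96). Likeness in r is not likeness in size, as the footprint log2 fold change was -0.30 for Snrnp200 and -1.91 for Pkd1.

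The spans of several members overlap other genes, and the strand setting of the counting is not given in the sources used here. The annotated span of Tcp1 overlaps Mrpl18, a mitochondrial ribosomal protein gene on the other strand, by 1459 bases. Mrpl18 had 175 RNA counts in HF and 239 in control cells, where Tcp1 had 2698 in HF and 2335 in control cells. Counts in this paragraph are raw sums, and the RNA HF group had more counts in total than RNA control. Scaled for depth, the fitted RNA fold of Tcp1 was 0.879, which did not pass. Mrpl18 fell in RNA (log2 fold change -0.83, edgeR adjusted p = 0.0025) and in footprints (-0.72, adjusted p = 0.0027). The part of Mrpl18 in the Tcp1 values was not tested. Snora20, a small nucleolar RNA gene within the Tcp1 span, had 197 RNA counts in HF and 71 in control cells and rose (1.02, edgeR adjusted p = 0.0041), opposite in sign to its host. The span of Cct6a overlaps Psph, a serine synthesis enzyme, by 88 bases, that of Cct7 overlaps Pradc1 by 483, and that of Cct8 overlaps Usp16, a deubiquitinating enzyme, by 191. None of these 3 passed in RNA or footprints. Usp16 came nearest in RNA, at 0.64 (adjusted p = 0.050, just above the threshold). Acat3, whose span overlaps Tcp1 by 1238 bases, had 4 RNA counts in HF and 0 in control cells. The start of Tsacc lies 136 bases from that of Cct3 and the start of the lncRNA B130034C11Rik 204 bases from that of Cct8. Both had 0 RNA counts in HF cells, with 0 for Tsacc and 2 for B130034C11Rik in control cells. Gm23245, a small nucleolar RNA gene in the Cct6a span, did not pass (log2 fold change -0.013, edgeR adjusted p = 0.98), and Snora15 in the same span had 0 RNA counts in HF and 10 in control cells. Atpsckmt, which starts 270 bases from Cct5, and LOC115488839, a small nucleolar RNA gene within the Tcp1 span, were not analysed here.

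Log2 fold changes of the genes that work with CCT covered a wider range than those of the subunits, -1.24 to 0.79 in RNA and -1.60 to 0.88 in footprints. Their SEs were also larger, at 0.17 to 0.34 in RNA and 0.16 to 0.29 in footprints. Those of the subunits were 0.09 to 0.10 in RNA and 0.08 to 0.09 in footprints, so the ranges are not compared at equal precision. Of 12 partners (prefoldin subunits, phosducin-like proteins and others), 10 were tested, and Pdcl2 and Cct6b, known as a testis form of the zeta subunit, were too low. In RNA 2 of 10 rose and 3 fell (median log2 fold change 0.02), where 22.3% of all genes tested were called higher and 21.4% lower, and DESeq2 called 0 higher and 2 lower. In footprints 2 rose and 4 fell (median -0.14), where 22.4% of genes were called higher and 20.8% lower, and DESeq2 called 2 higher and 3 lower. Pfdn1, a prefoldin subunit, fell in footprints by 1.60 (SE 0.19, edgeR adjusted p = 5.0e-08) with RNA at -0.33 (adjusted p = 0.17), and its TE fell too (-1.26). Pfdn5, another prefoldin subunit, fell in RNA (-1.24) and in footprints (-0.85). Pdcl, a phosducin-like protein, fell in footprints (-0.97) with RNA at -0.06, while Txndc9, which belongs to the same wider family, rose in footprints (0.88). Its RNA value of 0.79 passed in edgeR (adjusted p = 0.026) and not in DESeq2 (adjusted p = 0.072). In TE 1 partner fell and 0 rose of 10, where 7.55% of all genes tested were called lower and 5.80% higher. At an unadjusted p under 0.05 in edgeR 2 fell and 0 rose, and at the adjusted threshold DESeq2 called 1 lower and 0 higher.

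Tubulin cofactors, which take over tubulin after CCT, had 1 of 6 higher and 1 lower in RNA (median -0.21) and again 1 and 1 in footprints (median 0.05), beside the shares of all genes given for the partners. Tbcc rose in RNA (1.21) and footprints (1.16). Tbca fell in footprints (-0.94) with RNA at -0.25, and the RNA of Tbcd, at -0.51 with footprints at -0.12, passed in edgeR (adjusted p = 0.024) and not in DESeq2 (adjusted p = 0.069). In TE 0 of 6 passed in edgeR, where 13.3% of all genes tested were called in either direction. The 0 also held at an unadjusted p under 0.05 in edgeR and in DESeq2.

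Among 21 known clients of CCT, 11 fell and 1 rose in RNA (median -0.59), and 10 fell and 1 rose in footprints (median -0.39). Tubulin genes make up much of this list and most of the genes that fell in either assay. These counts and medians thus lean on a single gene family. Over all genes tested, 21.4% were called lower and 22.3% higher in RNA, and 20.8% lower and 22.4% higher in footprints. Among the alpha-tubulin genes, Tuba1b was at -2.32 in RNA and -2.15 in footprints, Tuba1a at -2.03 and -2.76, and Tuba1c at -1.54 and -1.86. The beta-tubulin gene Tubb4b was at -1.85 in RNA and -1.16 in footprints. These 4 passed in both assays, but tubulin genes have near-identical copies, so the split of reads between them is uncertain. In TE 1 of 21 rose and 1 fell, where 5.80% of genes were called higher and 7.55% lower. The members' own medians of 0.016 in RNA and -0.13 in footprints lie beside these, with 1 of 8 and 3 of 8 lower.

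Among 19 other chaperone genes 18 were tested. In RNA 4 rose and 9 fell (median -0.51), and in footprints 3 rose and 11 fell (median -0.57). The same shares of all genes apply, 22.3% higher and 21.4% lower in RNA and 22.4% higher and 20.8% lower in footprints. Hspa8, the constitutive HSP70, was at -2.50 in RNA and -1.95 in footprints, and its exchange factor Hsph1 at -1.53 and -1.31. The heat shock transcription factor Hsf1 was at -1.07 in RNA and -1.48 in footprints, and all 3 of these passed in both assays. The inducible HSP70 gene Hspa1b fell in RNA (-2.06), while its footprint value of -1.45 did not pass (edgeR adjusted p = 0.12), and it has a near-identical copy. Over all genes the median was -0.017 in RNA and -0.018 in footprints. In TE 1 of 18 rose and 1 fell, where 5.80% of genes were called higher and 7.55% lower.

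**Figure D4:**
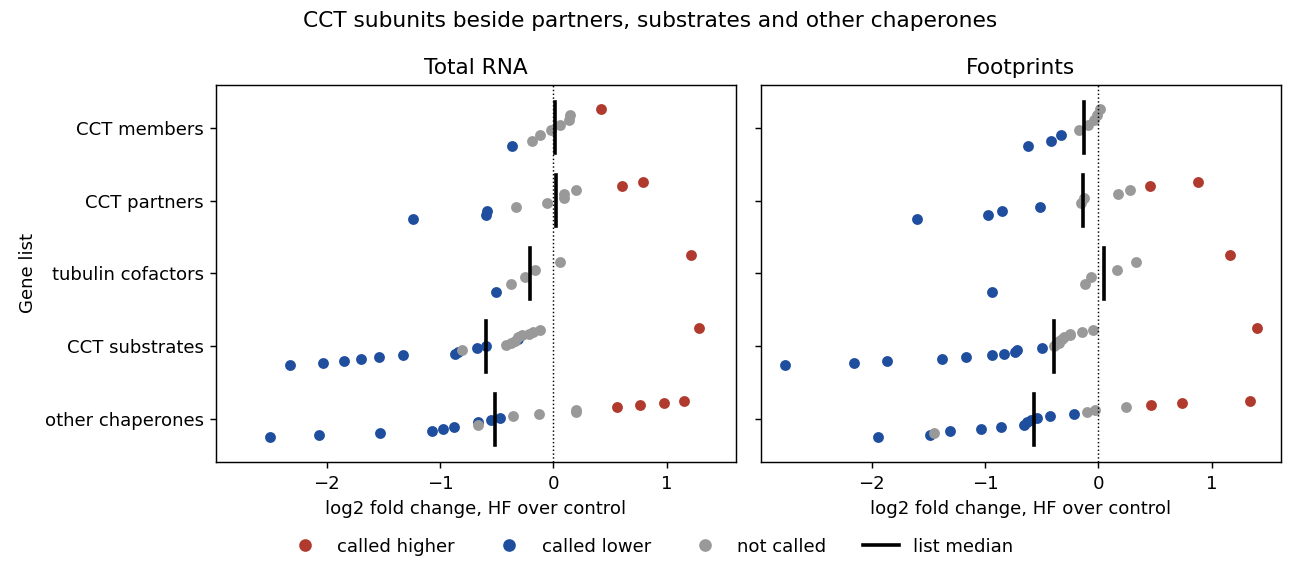
Log2 fold change of HF over control cells (horizontal axis) for each tested gene of the CCT complex and of 4 related lists, in total RNA and footprints. Each point is a gene, colored by its call, and the black bar is the list median. The subunits lie between -0.37 and 0.42 in RNA and between -0.62 and 0.02 in footprints. The clients lie between -2.32 and 1.29 in RNA and between -2.76 and 1.40 in footprints.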

How the data were processed

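The authors deposited a table of raw gene counts per library, 12 in all. Per the submitters' processing notes, the tools were Bowtie, HISAT2 and HTSeq with GRCm38. No source used here states the counted feature, the strand or how multi-mapping reads were treated. Per the labels' protocols, footprints came from RNase I digestion and the monosome fraction, and total RNA was fragmented by alkaline hydrolysis. Groups and replicate numbers came from the titles. Symbols were found for 55450 of 55536 IDs and gene types for 38656. Entries without a gene numbered 0, and so did columns of no sample. Low counts were mostly even in every library (1348 to 1557 genes with 2 counts, 332 to 717 with 1), for a reason not given.

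Tests used edgeR 4.0.16 in R 4.3.3 (quasi-likelihood, TMM, filterByExpr with a minimum count of 10), adjusted by Benjamini-Hochberg over all genes tested, at a threshold of 0.05. RNA was tested over all genes, footprints over protein-coding genes, and TE over genes that passed in both assays. SE and 95% intervals were derived from the F statistic. With such scaling, a change is one against most other genes. The procedure was also run on simulated data with larger changes than those of the members, so that run does not speak to calls of their size. DESeq2 1.42.0, other factors, filters, gene sets, a replicate block and left-out libraries were alternatives. Replicates of a group differed beyond counting noise (chi-square per degree of freedom 2.26 to 4.45).

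The members and lists were chosen with earlier results of these data known. Named were all 8 members, up to 4 called genes per list with the largest change in RNA or footprints, the 5 genes with the highest r (mean log2(CPM + 1) of at least 5 in both assays; 1 of them is not reported here), and genes whose span overlaps a member or that start within 1000 bases. Lists were CCT partners, tubulin cofactors, CCT clients, other chaperones and cell markers. Levels per residue and protein features had been planned, but coding lengths and protein sequences were not used here.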

Additional observations from a re-analysis of the deposited data

How the results depend on the processing

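The TE calls of Cct2, Cct4 and Cct8, the footprint calls of Tcp1, Cct2 and Cct8 and the RNA calls of Cct3 and Cct4 kept their direction and stayed past the threshold under every alternative run, left-out libraries included. The count of members lower in RNA was 2 in place of 1 with upper-quartile factors and with protein-coding genes alone, through Tcp1, and ran from 1 to 2 when single libraries were left out (2 without RNA control 2). Signs turned for members near 0 that were never called. Without a low-count filter Cct5 was at 0.014 in RNA, -0.0018 in footprints and -0.019 in TE, and with upper-quartile factors its footprints were at -0.064. With single libraries left out, Cct5 ran from -0.050 to 0.025 in RNA, from -0.023 to 0.055 in footprints and from -0.015 to 0.079 in TE, and Cct6a footprints from -0.038 to 0.0026. The cause was not tested.

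Same-numbered libraries of different groups did not deviate together (correlations -0.033 to 0.019), so the numbers were not taken as pairs. With the replicate number as a block, 1 member was lower and 1 higher in RNA, 3 lower and 0 higher in footprints, and 3 lower and 0 higher in TE, as without it. Footprints over RNA in each condition moved by less than their spread with relative log expression factors. The interval of a fold near 1 spanned 0.907 to 1.13 for Cct5 footprints. Replicates differed by more than counting noise, so depth is not all that enters such intervals.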
